A study of Homo sapiens with 6 samples.

Results

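HSC3 cells are an established line of oral squamous cell carcinoma (OSCC). In control cells, 602 of 19705 H3K27ac regions lay more than 1 kb from any annotated promoter and overlapped no H3K4me3 region. They were chosen from the siCONT lists as H3K27ac regions on chromosomes 1 to 22 and X that lay more than 1 kb from every annotated transcription start site (TSS) of a protein-coding or lncRNA transcript and that no H3K4me3 region overlapped. HSC3 cells had been transfected with a control siRNA (siCONT) or with siDLEU1, against the lncRNA DLEU1, and were collected after 72 h for ChIP-seq of both marks. There was 1 library for each siRNA and mark, so differences between siRNAs could not be set against replicates and were not tested. DLEU1 itself is an RNA, and its depletion is not measured by these lists. Among the rest of the H3K27ac regions of control cells, 2658 were distal with H3K4me3, 14797 lay within 1 kb of a TSS with H3K4me3, and 1648 lay within 1 kb of a TSS without it.

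H3K27ac is an acetyl mark of active promoters and enhancers, and H3K4me3 is concentrated at promoters. A distal region with the first mark and not the second is therefore commonly read as a candidate enhancer, an element that acts on genes at a distance. Enhancers of squamous cells are known for sites of AP-1, TEAD and p63. H3K27ac regions of control cells overlapped a TSS window of 11 of 11 keratinocyte marker genes, including KRT5, KRT14 and TP63, of 1 of 8 fibroblast genes (COL1A1), of 1 of 8 haematopoietic genes (CD14) and of 0 of 5 annotated endothelial genes.

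The members were weak and narrow. Their median fold enrichment over local background, the value that MACS2 gives at a summit, was 5.79, against 8.12 at distal regions with H3K4me3. Their fold enrichment ranged from 2.28 to 15.9, and the highest reached the 54.4th percentile of the control list. Their median width was 272 bp, in a range of 187 to 1026 bp, against 910 bp at TSSs with H3K4me3. The number of fragments at a summit, recovered from fold enrichment and p, had a median of 27 at members and 75 over the whole list. In multiples of the library's background, the median summit coverage was 18.2 at members, 26.9 at distal regions with H3K4me3 and 61.2 at TSSs with H3K4me3. The rule has a threshold of distance. Just inside it, regions near NR5A2 and ENSG00000285756 lay 1007 bp from a TSS with a fold enrichment of 5.58 each, and just outside it, regions near MAP3K21 and ENSG00000287588 lay 988 bp away with 4.69 and 6.68.

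**Figure D1:**
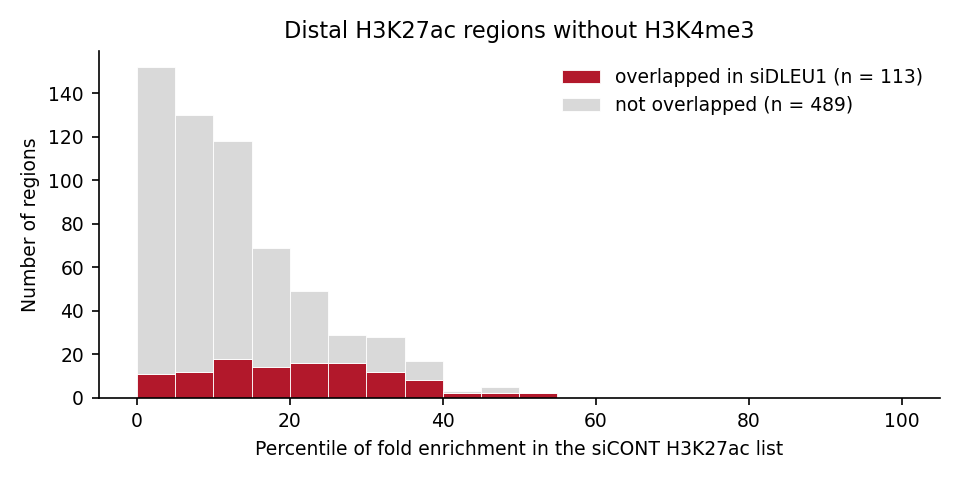
Number of distal H3K27ac regions without H3K4me3 (y axis) by the percentile of their fold enrichment in the siCONT H3K27ac list (x axis), with the 113 regions overlapped by an H3K27ac region of siDLEU1 cells in red and the other 489 in grey. No member lies above a percentile of 54.4.

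The sequences of the strongest member overlapped in siDLEU1 cells and of the strongest that was not are shown here because both hold many CpG dinucleotides, which are given in capitals. The windows of 300 bp are centred on the summits and read from the plus strand of GRCh37. The first, at chr9:128652200-128652499 in an intron of PBX3, holds 20 CpGs. The second, at chr15:79152349-79152648, holds 15 and is named for the nearest TSS, that of MORF4L1, 12514 bp from the member.
PBX3: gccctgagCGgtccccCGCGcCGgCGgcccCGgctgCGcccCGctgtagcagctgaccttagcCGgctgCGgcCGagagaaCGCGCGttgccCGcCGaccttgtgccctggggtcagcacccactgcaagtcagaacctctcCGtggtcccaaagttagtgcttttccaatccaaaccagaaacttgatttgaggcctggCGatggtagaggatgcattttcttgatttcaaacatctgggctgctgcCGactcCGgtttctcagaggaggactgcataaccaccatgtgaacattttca
MORF4L1: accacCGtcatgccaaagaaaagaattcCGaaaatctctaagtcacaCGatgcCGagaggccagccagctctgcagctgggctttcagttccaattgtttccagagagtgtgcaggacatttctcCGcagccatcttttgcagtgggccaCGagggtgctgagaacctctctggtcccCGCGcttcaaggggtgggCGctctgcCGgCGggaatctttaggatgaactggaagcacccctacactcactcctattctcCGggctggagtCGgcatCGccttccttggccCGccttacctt

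The members were rich in CpGs. A window of 300 bp at a summit held a mean of 15.9 CpGs, against 4.65 in windows 5 kb away, 16.8 at distal regions with H3K4me3 and 23.1 at TSSs with H3K4me3. The GC content was 56.6% at members and 44.9% in windows 5 kb away. The GC box (GGGCGG, both strands), bound by SP-family factors, was found in 34.6% of the members (95% Wilson interval 30.9 to 38.4%) and in 7.31% of the windows 5 kb away. AP-1 letters (TGANTCA) were found in 43 members, or 7.14% (5.35 to 9.48%), and in 8.14% (6.21 to 10.6%) of the windows 5 kb away, so their shares overlapped within counting error. The same letters were found in 7.71% of 35116 RefSeq promoters of GRCh38.p14 of the same length. TEAD letters (GGAATG) were found in 13.6% of the members and 15.8% of the windows 5 kb away, and p53-family letters, 2 copies of CATG spaced by any 6 bases, in 1.16% and 0.831%. No measurement here tests enhancer activity, and the members are named by the rule that chose them. The interferon-stimulated response element (ISRE, GAAANNGAAA), bound by IRF and STAT complexes, was found in 11.8% of the members (9.46 to 14.6%), in 4.98% (3.51 to 7.02%) of the windows 5 kb away, in 7.71% of distal regions with H3K4me3, in 3.48% of all H3K27ac regions and in 3.57% of the promoters. ETS letters (CCGGAAG) were found in 2.82% of the members and 0.498% of the windows 5 kb away, and CCAAT in 21.6% and 35.7%. RUNX letters (TGTGGT) were found in 13.1% of the members and in 20.9% of the windows 5 kb away.

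**Figure D2:**
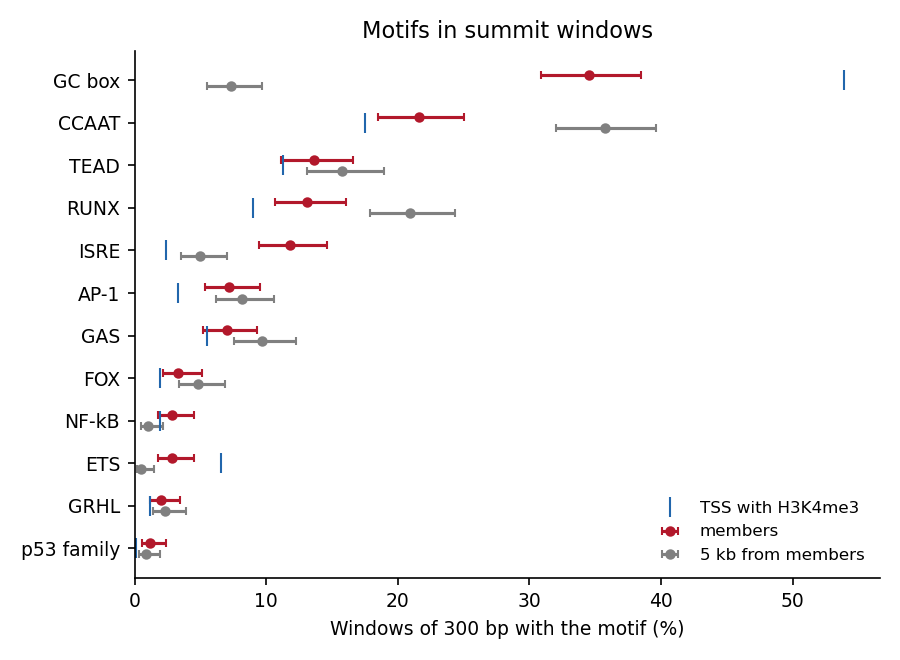
Share of 300 bp windows (x axis, %) that hold the letters of 12 motifs (y axis) at members (red), 5 kb from members (grey) and at TSSs with H3K4me3 (blue ticks), with bars giving 95% Wilson intervals. The intervals of the GC box, ISRE and ETS at members lie above those 5 kb away, those of CCAAT and RUNX lie below, and those of AP-1 and TEAD overlap.

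The longer form of the ISRE, with CT after the second GAAA, was searched after the shorter form had been counted. It was found in 12 members (1.99%) and in 0 of the windows 5 kb from them, and in 1.28% of distal regions with H3K4me3 and 0.411% of all H3K27ac regions. These members lay nearest SASH1, GMNC, AGA, GPC5, MUC7, UST and 6 genes named by identifier or as LINC02202. Their fold enrichment ranged from 5.11 to 11.1, and 2 of the 12 were overlapped in siDLEU1 cells, those nearest the coding genes CRLF3 and SLC8A1. None of these coding genes is among the 57 interferon-stimulated genes listed.

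Overlap with siDLEU1 H3K27ac regions was counted next. Of the 602 members, 113 shared at least 1 bp with a siDLEU1 H3K27ac region, a share of 18.8% (15.9 to 22.1%), and 489 were not. Over all 19705 regions, 22.2% were not overlapped. The share depended on the threshold: it was 51.8% of the 85 members with a −log10 q of at least 10 in siCONT cells, 28.6% with equal numbers of regions in both lists and 1.50% with only siDLEU1 regions of that −log10 q. Overlapped were 1329 of the 2658 distal regions with H3K4me3, and the share was 88.5% at TSSs with it and 48.6% at TSSs without it. The siDLEU1 regions covered 16.0% of the members' length, against 69.6% of the length of all regions. Low rank moved with low overlap: among members in the lowest of 10 equal bins of the control list by fold enrichment, 23 of 282 were overlapped, and in bin 4, 20 of 45. The classes were also set side by side at equal rank. Weighted to the members' ranks, 18.1% of the members, 24.7% of distal regions with H3K4me3, 38.7% of TSS regions with H3K4me3 and 35.0% of TSS regions without it were overlapped. When width was matched as well, the shares were 18.2% of the members, 20.4% of distal regions with H3K4me3 and 31.3% of TSS regions with it. Ranked by summit coverage in place of fold enrichment, the shares were 17.6% of the members and 21.2% of distal regions with H3K4me3. In bin 3 of that ranking, they were 47.3% and 46.7%.

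**Figure D3:**
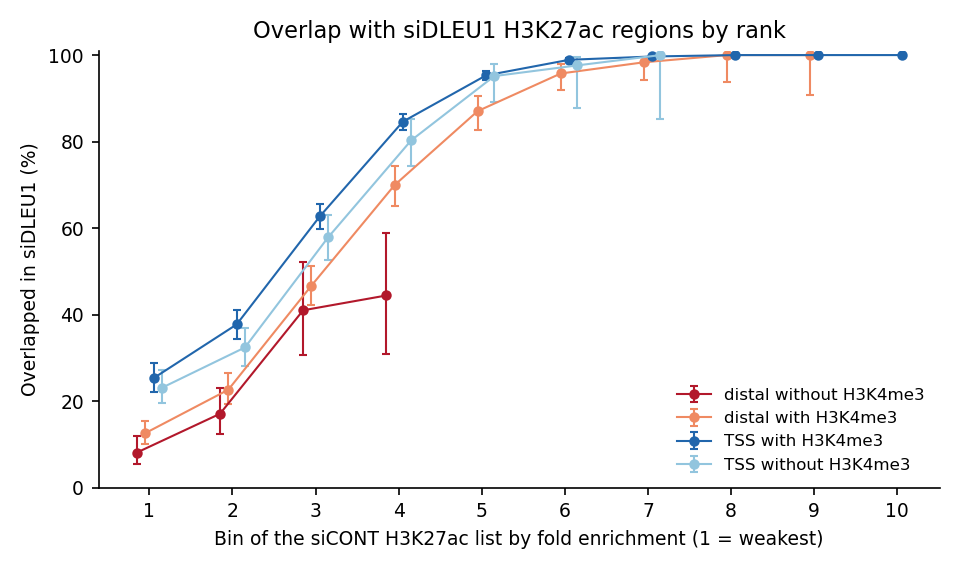
Share of H3K27ac regions of siCONT cells overlapped in siDLEU1 cells (y axis, %) by 10 equal bins of the control list (x axis, 1 is the weakest) for 4 classes of region, with 95% Wilson intervals and at least 20 regions a point. Bins are by fold enrichment. Members (red) run from 8.16% in bin 1 to 44.4% in bin 4, under the other classes. In bins 1 to 3 their intervals overlap those of distal regions with H3K4me3.

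The siDLEU1 list was lower in signal as a whole. At the 15334 regions overlapped in both lists, the median ratio of summit coverage, siDLEU1 to siCONT, was 0.621. The smallest −log10 p in the siDLEU1 list was 3.72. With coverage and local control both unchanged relative to background, 480 of the 489 members that were not overlapped (98.2%) would have reached it. The same held for 98.3% of all regions that were not overlapped. With coverage lowered by the ratio of 0.621, 234 of the 489 members (47.9%) would have, beside 63.0% of all regions that were not overlapped. Of the 113 overlapped members, whose own median ratio was 0.776, 89 would have passed after the same lowering. Both ratios come only from regions called in both lists, and a region whose siDLEU1 signal fell too low for a call has none. They need not hold at the regions that were not overlapped. A region absent from a peak list can hold signal under the limit of the caller.

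The strongest member lay in an intron of PBX3, a homeodomain partner of HOX proteins, at chr9:128652187-128652571. Its fold enrichment was 15.9 from 74 fragments in siCONT cells and 7.85 from 45 in siDLEU1 cells, and its percentile went from 54.4 to 35.5. A neighbour in the same intron, at chr9:128651542-128652050, had 12.5 and 9.60. FAM107A, an actin-associated gene, had a member of 842 bp in an intron at chr3:58570436-58571277, with 14.7 in siCONT and 9.44 in siDLEU1 cells. Members near OSTM1-AS1 and LINC00434 had 14.1 and 14.0 in siCONT cells and 6.74 and 6.50 in siDLEU1 cells. All of these had a region in both lists. Fold enrichment is not on the same scale in different lists, and on the scale of coverage the first PBX3 region went from 49.7 to 23.5 times background.

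The strongest members with no siDLEU1 region lay near MORF4L1, a chromodomain subunit of the NuA4 acetyltransferase complex, ZBTB32, a zinc finger repressor, LINC01623, CCN6 and ENSG00000271717. Their fold enrichment in siCONT cells was 14.3, 13.6, 13.4, 12.3 and 11.8, from 61, 58, 64, 52 and 50 fragments. The MORF4L1 region stood at 41.0 times background in siCONT cells. With its siCONT local control scaled to the siDLEU1 background, 9.12 times would reach the smallest −log10 p in the siDLEU1 list. The lowest coverage of a siDLEU1 region called at a local control equal to background was 9.91 times. At CCN6, which encodes a secreted matrix protein, the siDLEU1 H3K4me3 list held a region of 3.97-fold. HES7, a Notch target of the segmentation clock, had a member of 986 bp in its coding sequence with 11.4-fold and no siDLEU1 region. Among the widest members, the region of 1026 bp near SP9 had 8.26-fold in siCONT and 6.10-fold in siDLEU1 cells, the region of 966 bp near ENSG00000286833 had 7.77 and 5.65, and the region of 946 bp near ENSG00000287050 had 6.01-fold in siCONT cells and no siDLEU1 region.

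At regions present in both lists, percentiles were compared, which come from lists of 19705 and 17672 regions. The median change at the 113 members was -4.55 points, beside -5.38 at all overlapped regions. These members started lower, at a median control percentile of 21.2 against 61.1, and so had less room to fall. The percentile was lower at 69 and higher at 44. It was lower by 20 points or more at 13 of the 113 members, against 21.7% of all overlapped regions. A region under the 20th percentile could not fall that far. The percentile was higher by 20 points or more at 8 of the 113, against 7.66% of all overlapped regions. Summit coverage was lower in siDLEU1 cells at 93 of 113, with a median ratio of 0.776. The largest fall in percentile was at B3GNT7, a glycosyltransferase of keratan sulfate synthesis, where it went from 43.4 to 4.34. LHX5, a LIM homeobox gene, followed SNHG31 with 27.5 and 2.20. A percentile ranks fold enrichment over local background, so it can move apart from summit coverage. The coverage ratios at B3GNT7, SNHG31 and LHX5 were 0.503, 0.692 and 0.690, beside a median of 0.621 at all overlapped regions. At the SNHG31 member, only 10.7% of the 31-base words were found once in GRCh37. Among the largest rises in percentile were those at ENSG00000286288, from 24.8 to 54.6, and at LRRC37A11P, ADAM11 and DCAF17, which reached 31.4, 34.6 and 47.2. Summit coverage was nevertheless lower in siDLEU1 cells at LRRC37A11P and ADAM11, with ratios of 0.815 and 0.793. The ratio was 1.01 at ENSG00000286288 and 1.16 at DCAF17.

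**Figure D4:**
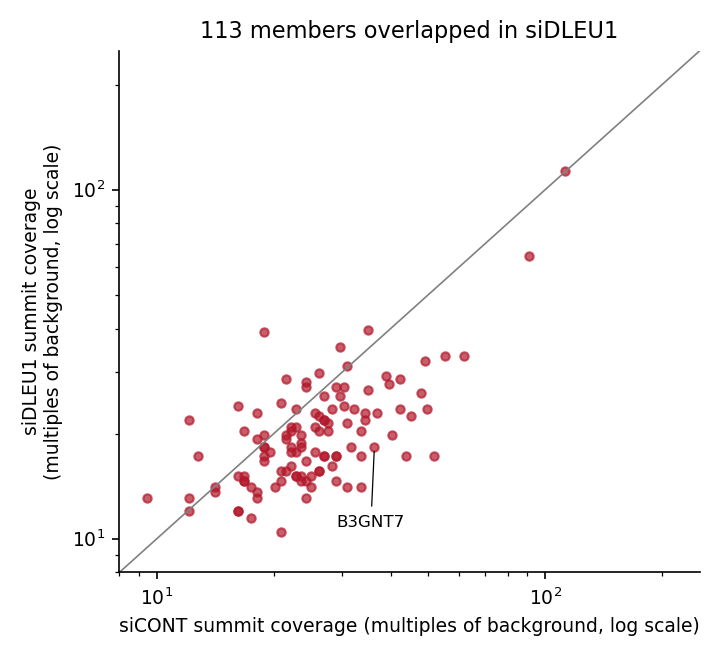
Summit coverage in siDLEU1 (y axis) against siCONT cells (x axis), in multiples of each library's background on log scales, at the 113 members overlapped in siDLEU1 cells. Points under the grey line of equality, 93 of them, were lower in siDLEU1 cells.

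The 2 members of highest coverage in both lists sat on a high local control. The region near ENSG00000230803 stood at 112 times background in siCONT and 113 times in siDLEU1 cells, but its fold enrichment was 2.84 and 3.32, and the region near FAM242A at 90.8 and 64.7 times.

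Some members were not free of H3K4me3 in the siDLEU1 library. The siDLEU1 H3K4me3 list overlapped 100 of the 602 members (16.6%, 13.9 to 19.8%), against 86.6% of all H3K27ac regions. The rule took only regions without H3K4me3 in control cells, so a share far below that of all regions was set by the choice. At TSS regions without control H3K4me3, the share was 428 of 1648 (26.0%). Of the 100 members, 40 also had a siDLEU1 H3K27ac region and 60 did not, and 429 members had neither mark in siDLEU1 cells.

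Repeated sequence made up part of the members, at a share like that of windows 5 kb away. Of the 602 members, 377 (62.6%) had at least 90% of their 31-base words only at that place in GRCh37. The same held for 60.8% of windows 5 kb away, 51.1% of distal regions with H3K4me3 and 85.5% of all H3K27ac regions. The other 225 members fell short of 90%, and reads there may have other matches in the genome. How such reads were placed is not given in the sources used here, and their part in the results was not tested. The overlapped share was 20.7% of the 377 and 15.6% of the 225. By similarity of their summit windows, 149 members fell into 18 groups. The largest group had 56 members, whose words occurred a median of 98.5 times in the genome. Within 2.5 kb of the summit, 26 of these 56 held at least 3 tandem copies of CCCTCT, a hexamer that opens SVA retrotransposons, and 0 of the other 546 members did. The siDLEU1 H3K4me3 list overlapped 31 of the 56 (55.4%, 42.4 to 67.6%), against 12.6% (10.1 to 15.7%) of the members outside the group. The siDLEU1 H3K27ac list overlapped 6 of them. Similar sequence was found at 272 distal regions with H3K4me3. The second group had 38 members, of which 33 aligned with the 7SL RNA gene RN7SL2, the RNA of the signal recognition particle from which Alu repeats derive. So did 31 of the 56 members of the largest group and 9 members in no group. Of the 38, 4 were overlapped by siDLEU1 H3K27ac and 5 by siDLEU1 H3K4me3.

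A pattern of tRNA genes was found at some members, at a share like that of distal regions with H3K4me3. RNA polymerase III transcribes tRNA genes from an A box and a B box inside the gene. Letters of both boxes, 20 to 70 bases apart, were found within 300 bp of 17 members, against 2 in windows 5 kb away. That is 2.82% of the members, beside 2.60% of distal regions with H3K4me3 and 0.863% of all H3K27ac regions. Of the 17, 10 lay on chromosome 6 between 26327285 and 28849070 and 5 on chromosome 1. The siDLEU1 H3K27ac list overlapped 1 of the 17, and 12 of the 16 others would have passed after the lowering by 0.621. Their median coverage in siCONT cells was 28.2 times background. The sequences of 4 of them are shown with both boxes in capitals, the first from the member that was overlapped. They lie at chr6:27059518-27059591 (plus strand), chr6:27463590-27463673 (plus strand), chr1:161425415-161425488 (minus strand) and chr6:28849162-28849236 (plus strand) and are named by the nearest gene.
ENSG00000272468: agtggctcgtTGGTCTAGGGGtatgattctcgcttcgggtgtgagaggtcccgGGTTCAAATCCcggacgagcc
ENSG00000286652: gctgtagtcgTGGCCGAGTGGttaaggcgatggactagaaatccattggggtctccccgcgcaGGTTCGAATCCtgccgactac
ENSG00000283317: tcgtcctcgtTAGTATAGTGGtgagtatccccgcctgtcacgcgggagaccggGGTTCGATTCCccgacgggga
HCG14: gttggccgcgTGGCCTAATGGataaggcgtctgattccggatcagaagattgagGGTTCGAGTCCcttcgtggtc

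**Figure D5:**
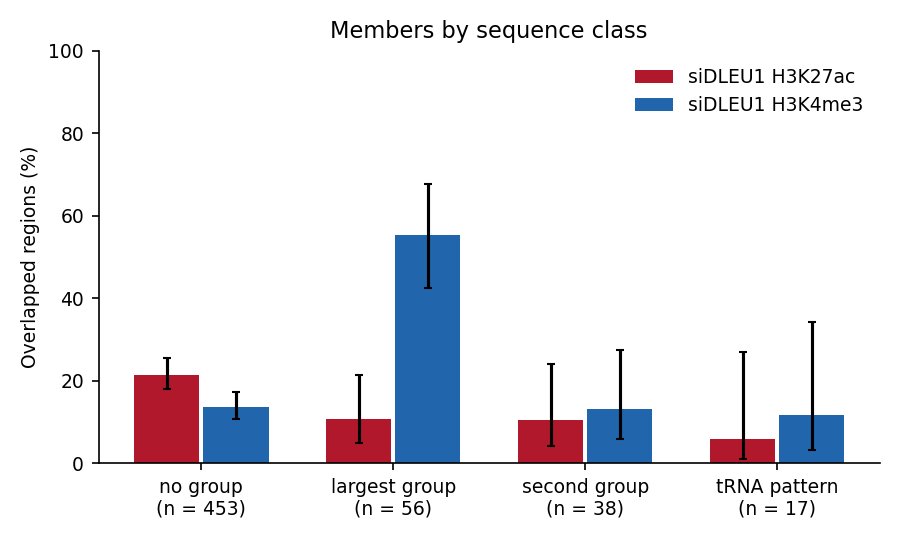
Share of members overlapped in siDLEU1 cells (y axis, %) by H3K27ac (red) and H3K4me3 (blue) regions, for members in no sequence group, in the 2 largest groups and with a tRNA pattern (x axis), with 95% Wilson intervals. H3K4me3 overlaps 55.4% of the largest group.

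The members were spread over 569 nearest genes. Their median distance to a TSS was 13748 bp, with 236 within 10 kb and 102 beyond 50 kb. Between genes lay 283 summits, in introns 256, in other exons 34 and in coding sequence 29. Most genes, 543, were nearest to 1 member. The genes with most were ENSG00000283317 and SP9 with 4 members each, and RNF187, KDM2B and ENSG00000283360 with 3 each. Some of these counts include repeated sequence, where reads may have other matches. At the strongest member, the share of 31-base words found once in GRCh37 was 0% for ENSG00000283317 and RNF187. It was 32.6% for KDM2B and 100% for SP9. SP9 and its relative SP8, zinc finger factors of limb and forebrain development, had 1 of 4 and 0 of 2 members overlapped in siDLEU1 cells. KDM2B, a CpG-binding subunit of a Polycomb complex, had 2 of 3, PBX3 2 of 2 and CASZ1, a zinc finger factor, 1 of 2. With 2 members each, 21 genes were tied, and those named here, with ENSG00000287374 and ENSG00000291003, had the highest fold enrichment among them.

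Genes of squamous and interferon biology were taken from 12 lists with 215 genes. Outside the interferon lists, 8 genes were the nearest gene or nearest coding gene of a member, namely KLF4, SOX2, FOS, DST, ITGA6, ERBB4, TIMP2 and TGFBR2. Squamous transcription factors took 2 of the 602 members (0.332%) and 7 of all 3260 distal regions (0.215%). Hemidesmosome genes took 2 and 6 (0.332% and 0.184%), and interferon-stimulated genes 1 and 10 (0.166% and 0.307%). AP-1 genes took 1 and 11 (0.166% and 0.337%), keratins 0 and 2 and NF-kB genes 0 and 4. EMT factors and CD44 genes took 0 and 1 each. The EGFR family and YAP and TGF-beta targets took 1 and 5 each, and matrix proteases 1 and 1. These counts are small, and no difference was tested. Of the members at these 8 genes, 0 were overlapped in siDLEU1 cells, beside 18.8% of all members, and their fold enrichment was 4.34 to 7.81. The KLF4 member lay 147503 bp from its TSS with 7.81-fold, and the SOX2 member lay in the coding sequence with 5.80-fold. The FOS member, 1743 bp away, had 5.62-fold. The DST member belonged to the largest sequence group, with 0% of its 31-base words found once in GRCh37. A siDLEU1 H3K4me3 region of 6.97-fold overlapped it. TGFBR2, a TGF-beta receptor gene, was the nearest coding gene of a member with 6.25-fold. Of the 57 interferon-stimulated genes, HLA-E, a class I molecule that NK cells read, was the nearest coding gene of 1 member. That member had 5.18-fold in siCONT and 6.57-fold in siDLEU1 cells, and its percentile went from 7.35 to 23.9. Its summit coverage was nearly the same in both, 18.8 and 19.8 times background, a ratio of 1.05. The 26 genes of interferon receptors, JAK, STAT and IRF had 0 members.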

How the data were processed

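H3K27ac and H3K4me3 were examined by ChIP-seq in HSC3 cells, with 1 library per siRNA and mark. The authors aligned reads to hg19 and deposited a MACS2 peak list for every ChIP library. The deposited columns used were the fold enrichment (a ratio), the −log10 p and the −log10 q. The deposited score column was not used, and input DNA was not analysed here. Positions and sequences were taken from GRCh37 and TSSs from GENCODE v44lift37 (145355 entries of protein-coding and lncRNA transcripts). Fragments at a summit were recovered from fold enrichment and p, for 100% of the regions of each list. Coverage is the fragments in multiples of the library's background. Similar windows were joined by blastn 2.17.0 hits with E up to 1e-10. Wilson intervals cover the counting of regions only, and no test was made with 1 library per group. The functions were tested on simulated data. Alternatives are given in the closing section. Regions named were the 10 strongest, the 5 widest, the 5 strongest without a siDLEU1 region, the 5 largest rises and falls in percentile, those nearest listed genes, and the 10 genes nearest to most members. Ties were broken by fold enrichment. A region that these naming criteria pick is not reported here. The members and lists were chosen with earlier results of these data known, and the sequence groups, the tRNA pattern, the longer ISRE and the regions of highest coverage were chosen after their values were seen. Python 3.11.15, pandas 2.3.3 and scipy 1.17.1 were used.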

Additional observations from a re-analysis of the deposited data

How the results depend on the processing

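No paired analysis was possible because each mark was profiled in a lone library per siRNA. The number of members was 602. It was 1438 when only H3K4me3 regions with a −log10 q of at least 10 removed a region, and 85 when H3K27ac regions had to reach the same limit. Under these alternatives the share overlapped in siDLEU1 cells was 27.1% and 51.8%, the covered length 23.2% and 34.4%, and the median change in percentile -7.27 and -11.2 points. The AP-1 share was 3.53% under the second. The overlapped share was also 15.1% when 50% of both regions had to be shared, 26.1% with any siDLEU1 region within 1 kb, 28.6% with equal numbers of regions and 1.50% with only siDLEU1 regions with a −log10 q of at least 10, which covered 1.68% of the length. The AP-1 share was 4.32% in 200 bp and 11.5% in 500 bp. TSS distances of 3 and 5 kb and protein-coding TSSs moved none of the 5 results beyond their interval or, for the number, by over 1.5 times. The TSSs of every transcript of these genes, and members of mostly unique words, were added after the data were seen and gave overlapped shares of 18.2% and 20.7%. The values rest on a median of 27 fragments at a summit and on 1 library per siRNA and mark.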
